A study of Mus musculus with 2 samples.

Results

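Cdx2, Elf5, Tfap2c, Gata3, Hand1 and Ets2 are transcription factor genes that direct the trophoblast, the lineage of the placenta, and they were taken as one set of 6 among the 22367 protein-coding genes of the annotation. Their chromatin was profiled by ATAC-seq, which marks accessible DNA by cutting and tagging it with the Tn5 transposase, in 2 libraries of mouse embryonic stem cells (ESCs). The WT library came from E14 ESCs and the other from E14 ESCs that lack Uhrf1 (Uhrf1 KO, in short KO). Both were undifferentiated cells kept with serum and leukemia inhibitory factor on plates coated with gelatin or with mouse embryonic fibroblasts (MEFs), and 50000 cells were lysed for each. Both cell lines were obtained from another group, and how many clones the KO line holds is not given in the sources used here. With 1 library per genotype a difference between the lists cannot be set against replicate error. No test between the genotypes was therefore made, and all intervals below are 95% exact intervals that cover counting error only. They take each peak as independent of the others, although the peaks lie together in 6 windows and some overlap. An interval that includes or misses a list's share is thus a description and not a test. A peak was assigned to a gene when its middle lay in the gene or in the 50 kb on either side, which gave 46 of 71914 WT peaks and 25 of 61640 KO peaks. The deposited lists hold positions but no read counts, so the depth behind a single peak is unknown. Absence from a list does not show that a site was closed. The lists also carry no coverage over the deleted part of Uhrf1, so they do not check the genotype label.

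The trophoblast is the first lineage to separate from the cells that form the embryo proper. Cdx2, a caudal-type homeobox factor, and Gata3, a zinc finger factor, act in the trophectoderm of the blastocyst, and Tfap2c, of the AP-2 family, acts in the same layer. Elf5, an Ets family factor of trophoblast stem cells, is known for a promoter that is methylated in ESCs and unmethylated in trophoblast stem cells, so that it is called a gatekeeper between the lineages. Ets2, another Ets family factor, is needed for trophoblast self-renewal, and Hand1, a basic helix-loop-helix (bHLH) factor, for trophoblast giant cells. Uhrf1 recruits the maintenance methyltransferase Dnmt1 to newly replicated DNA, where it copies methylation at CpG dinucleotides. Neither methylation nor expression was measured in these libraries.

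The sequence in front of 2 Elf5 transcription start sites (TSSs) is shown because Elf5 is the gene of the set known for methylation at its promoter. Which of the 2 starts has the methylated promoter is not given in the sources used here, and the stretches differ in CpG number. Both stretches were read from mm9 (NCBIM37), 5′ to 3′ on the plus strand, and each CpG is in capitals. The first stretch, chr2:103251595-103251844, lies before the start of the longest gene model and holds 2 CpGs. The second, chr2:103263969-103264218, lies before the coding TSS at 103264219 and holds 8 CpGs.
Elf5, before the gene start: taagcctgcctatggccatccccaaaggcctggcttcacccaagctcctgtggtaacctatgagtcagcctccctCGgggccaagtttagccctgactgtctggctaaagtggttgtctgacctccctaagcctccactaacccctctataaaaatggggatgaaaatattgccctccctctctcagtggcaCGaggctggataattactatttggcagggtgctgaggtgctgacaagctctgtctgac
Elf5, before the TSS at 103264219: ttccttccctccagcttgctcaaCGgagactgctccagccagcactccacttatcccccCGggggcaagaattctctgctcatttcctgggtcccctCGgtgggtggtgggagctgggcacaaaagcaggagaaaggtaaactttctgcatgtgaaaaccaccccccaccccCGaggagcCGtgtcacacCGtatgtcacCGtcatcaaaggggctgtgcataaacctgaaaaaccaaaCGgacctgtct

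In windows from 250 bp before to 50 bp after the gene start, Elf5 had a GC content of 54.3%, 4 CpGs and an observed to expected CpG ratio of 0.184, which was at or above the ratio of 21.3% of all promoters. At 103264219 the window had 9 CpGs and a ratio of 0.415. Ets2 (0.794), Tfap2c (0.757) and Cdx2 (0.72) were above 0.6 with a GC content above 55%, the limits used here for a CpG-rich promoter, as were 37.4% of all protein-coding genes. Hand1 (0.56) and Gata3 (0.553) lay close to the median of all promoters, 0.534. Gata3 had a CpG-richer window, with a ratio of 0.658 and 22 CpGs, at its inner coding TSS.

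**Figure D1:**
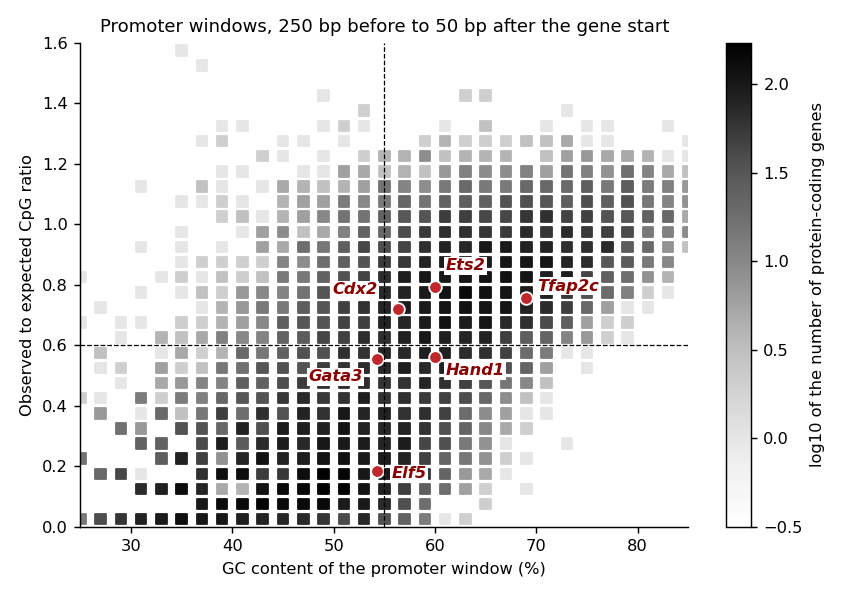
GC content (x axis, %) against the observed to expected CpG ratio (y axis) in the window from 250 bp before to 50 bp after the gene start. Grey squares give the number of protein-coding genes on a log10 scale, within the range drawn, red points are the 6 trophoblast regulators and dashed lines mark 55% GC and a ratio of 0.6. Elf5, at 54.3% and 0.184, is the lowest of the 6, while Ets2, Tfap2c and Cdx2 lie in the upper right field.

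The windows of the 6 genes held fewer KO than WT peaks. The 46 WT peaks (33.7 to 61.4, Poisson) and 25 KO peaks (16.2 to 36.9) gave a KO to WT ratio of 0.543 (0.32 to 0.903), beside 0.857 for the whole lists and 0.848 to 0.892 for the chromosomes the genes lie on. The KO share of these peaks was 35.2%, and its interval of 24.2% to 47.5% included the 46.2% of the whole lists. Fewer KO than WT peaks were listed at 5 of 6 genes, and Elf5 was the exception. This held for 56.7% of the windows of all protein-coding genes, some of which had few WT peaks. Each of the 6 windows held at least 4 WT peaks. Among the 16007 windows with at least 4, the median KO to WT ratio was 0.786, with quartiles of 0.6 and 1.

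A peak was called shared when a peak of the other list lay within 100 bp, and WT-only or KO-only otherwise. Of the 46 WT peaks, 30 (65.2%, 49.8% to 78.6%) were WT-only, beside 32.1% of the whole WT list. Of the 25 KO peaks, 5 (20%, 6.83% to 40.7%) were KO-only, beside 24.6% of the whole KO list. At 5 of 6 genes at least 50% of the WT peaks were WT-only, which held for 20.5% of the 16007 windows with at least 4 WT peaks. The shared peaks were closely matched, with a median of 22 bp and at most 84 bp between the middles of a WT peak and its KO partner. Most WT-only peaks were far from any KO peak, since the nearest one was within 500 bp, middle to middle, for only 5 of the 30. Counted in this wider way, 25 of 46 WT peaks (54.3%, 39% to 69.1%) had no KO peak within 500 bp, beside 25.1% of the list, and 2 of 25 KO peaks (8%, 0.984% to 26%) had no WT peak, beside 22%.

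**Figure D2:**
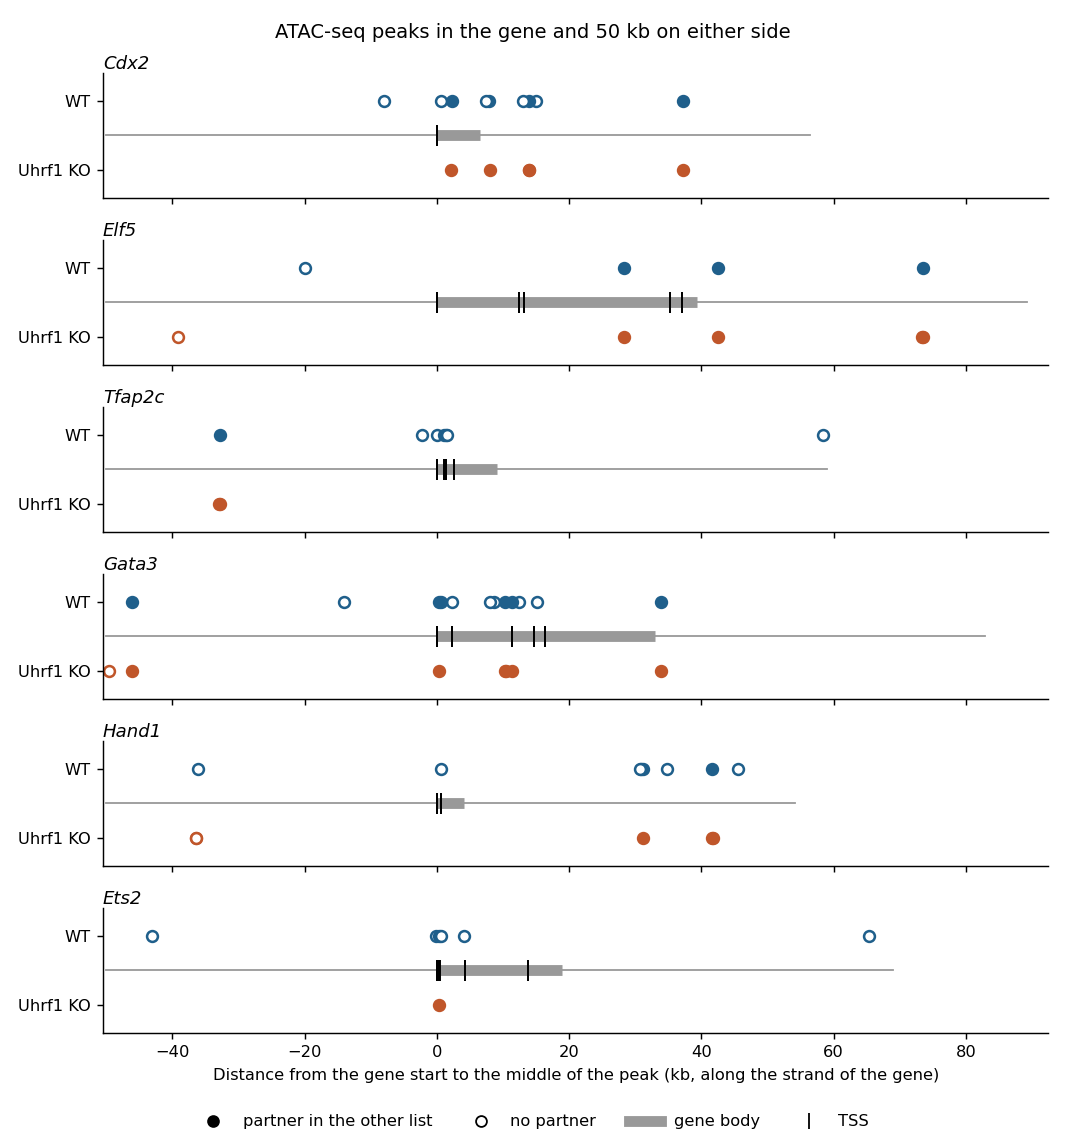
Peaks in the gene and 50 kb on either side, by distance from the gene start (x axis, kb, along the strand of the gene), with WT above and Uhrf1 KO below each gene model. Filled points have a partner within 100 bp in the other list, open points have none, grey bars are gene bodies and black ticks TSSs. Open WT points are frequent at every gene but Elf5, and open KO points occur at Elf5, Gata3 and Hand1.

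**Figure D3:**
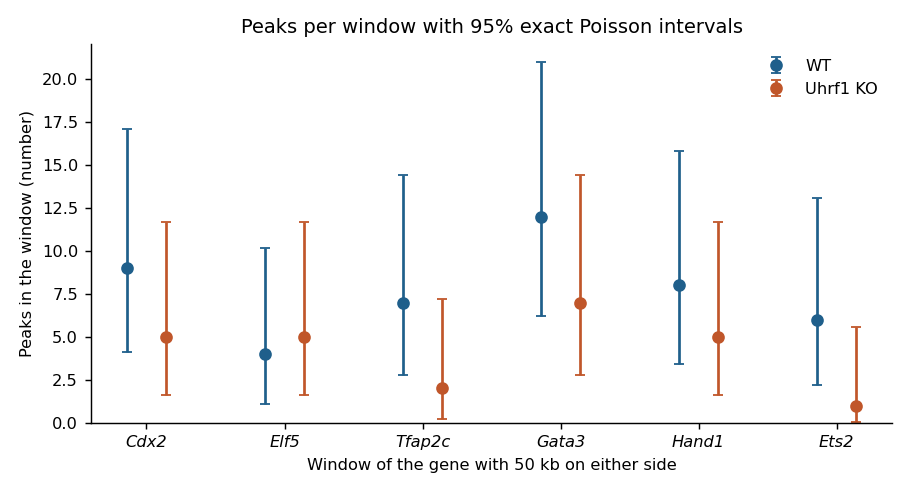
Number of WT and Uhrf1 KO peaks (y axis) in the window of each gene (x axis), with 95% exact Poisson intervals. WT is above KO at 5 genes, the intervals overlap at all 6, and Elf5 has 4 WT and 5 KO peaks.

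Peaks near TSSs were then compared with distal ones. Of the 17 WT peaks within 2 kb of a TSS of their gene, 13 (76.5%, 50.1% to 93.2%) were WT-only, while 25.6% of all WT peaks within 2 kb of protein-coding TSSs were. The windows also hold promoters of other genes. With any protein-coding TSS counted, as for the list, 17 of 24 near WT peaks (70.8%, 48.9% to 87.4%) were WT-only, and of the 22 WT peaks farther away 13 (59.1%, 36.4% to 79.3%), an interval that includes the 38.6% of all distal WT peaks. KO had 5 peaks within 2 kb of a TSS of their gene, and 0 of 5 (0% to 52.2%) were KO-only, beside 8.91% of the list's peaks near TSSs. A WT peak within 2 kb of a TSS was listed at 5 of 6 genes, beside 63.6% of all protein-coding genes, and a KO peak at 2 of 6, beside 58.7%. Cdx2, Tfap2c and Hand1 had a WT but no KO peak there, 3 of 6 beside 6.64% of all genes. At Cdx2 and Hand1 this rested on 1 WT peak each, with name numbers (described below) at 89.5% and 94.7% of their chromosome, in the ninth and last 10%, where 61% and 65.7% of all WT peaks had no partner. Within 5 kb of a TSS, KO peaks were listed at 3 of 6 genes, since the KO peak of Cdx2 lay 2205 bp away, and WT peaks at 5 of 6. No share of all protein-coding genes was taken at 5 kb, so these counts show only how the set depends on the distance. A KO but no WT peak was found at 0 of 6 (1.73% of all genes). With 6 genes, these counts describe the set and were not tested.

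**Figure D4:**
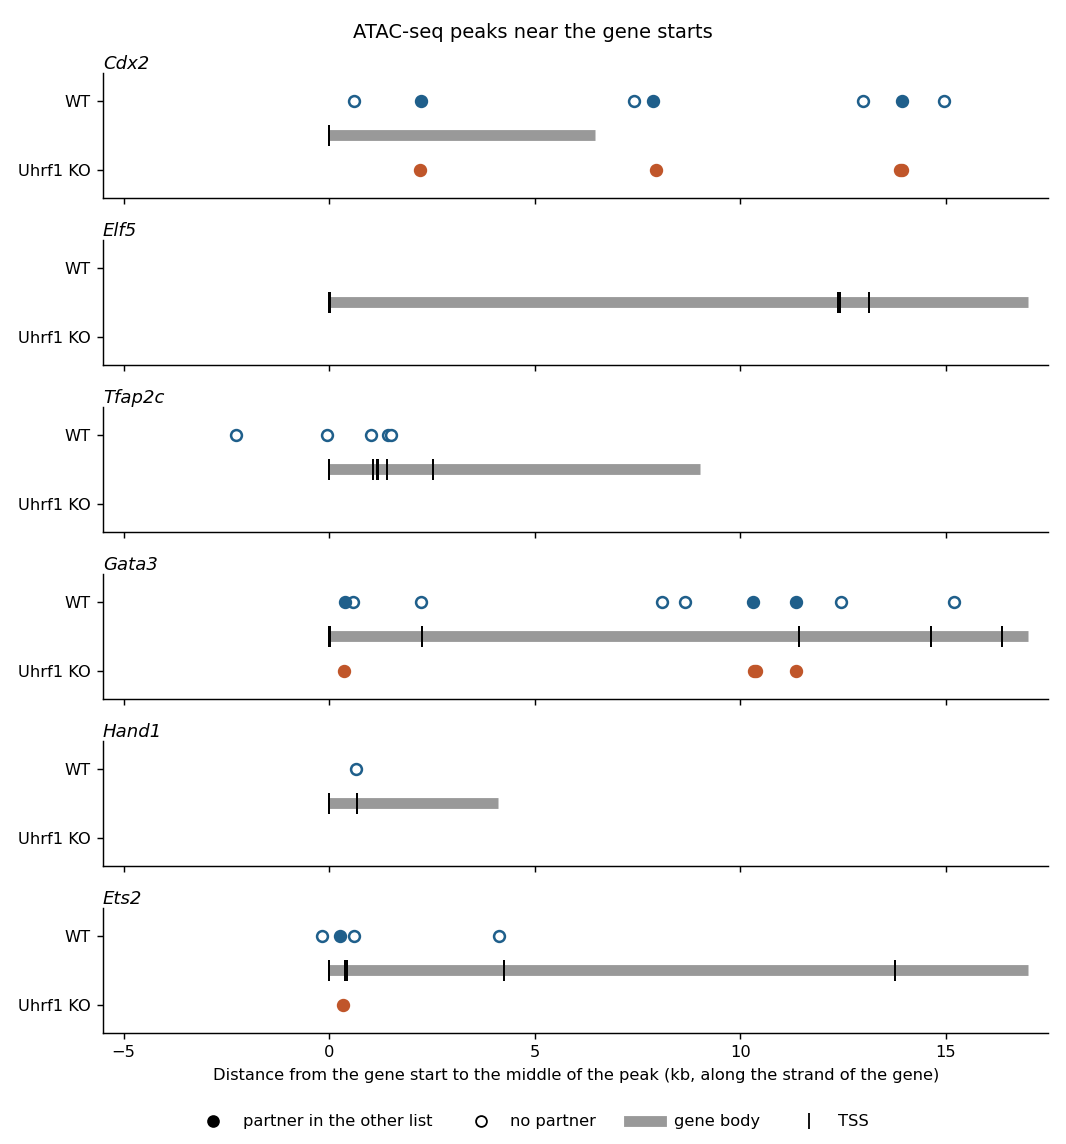
The same peaks from 5 kb before to 17 kb after the gene start (x axis, kb), with WT above and Uhrf1 KO below each gene model, filled points shared and open points without a partner. Tfap2c and Hand1 have open WT points at their TSSs and no KO point in the range, Gata3 and Ets2 have shared peaks there, and Elf5 has no peak in either list.

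Elf5 (ENSMUSG00000027186.8, chr2:103251845-103291146, plus strand) had no peak within 2 kb of any of its 7 TSSs in either library. This held for 34.6% of all protein-coding genes, for 53.9% of those without a CpG-rich promoter, such as Elf5, and for 2.5% of those with one. The WT list had 4 peaks (1.09 to 10.2) and the KO list 5 (1.62 to 11.7) in the window, a ratio of 1.25, and 91.9% of windows had a ratio at or below this. The peak nearest to the gene start in WT was a WT-only peak 19892 bp upstream, chr2:103231903-103232003, in intergenic sequence. KO had no peak there, and its nearest was 28261 bp downstream. From the coding TSS at 103264219, whose flank is shown above with 8 CpGs, the nearest peak lay 15957 bp downstream in WT and 15887 bp in KO. It was the same shared intronic peak, 70 bp apart between the lists, and was the single listed site of open chromatin inside the Elf5 gene in both libraries. Its sequence is given because it is the element of Elf5 that both lists share, and the 101 bp of the WT peak hold 4 CpGs.
Elf5 intron, WT peak, chr2:103280126-103280226, plus strand: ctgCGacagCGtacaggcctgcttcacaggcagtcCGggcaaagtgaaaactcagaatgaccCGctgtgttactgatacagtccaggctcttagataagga

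The other Elf5 peaks belonged to the surroundings. A KO-only peak lay 39148 bp upstream, chr2:103212647-103212747, in an intron of A930006I01Rik and 224 bp from a TSS of that gene. The gene Cat, which encodes catalase and ends next to Elf5, had 1 WT and 2 KO shared peaks at its start, within 69 bp of a Cat TSS. A further shared peak, 42447 bp from the Elf5 start in WT, fell in the untranslated end of Cat. The 31 bp at its centre occurred at 2 places in mm9, so its placement is uncertain.

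Tfap2c (Tcfap2c in the annotation, ENSMUSG00000028640.5, chr2:172375093-172384122, plus strand) had 7 WT peaks (2.81 to 14.4) and 2 KO peaks (0.242 to 7.22), and 3.54% of windows had a ratio at or below its 0.286. Within 2 kb of its 6 TSSs there were 4 WT peaks and 0 KO peaks. Among the 4007 genes with at least 4 WT peaks near a TSS, 2.12% had no KO peak there. Gata3, Ets2 and Tfap2c were among these genes, and it was 1 of 3, Tfap2c, that had none. The first lay 54 bp upstream of the gene start. The next, 1022 bp downstream, fell in an intron 38 bp from an inner TSS, and those at 1423 bp and 1500 bp fell in a coding exon with 26 and 32 CpGs in their central 200 bp. All 4 were WT-only, as were the peaks 2263 bp upstream and 58390 bp downstream. The peaks at 1423 bp and 1500 bp overlapped. Taken as 1 region, they would leave Tfap2c outside the class with at least 4 WT peaks. The peaks at 2263 bp, 1423 bp, 1500 bp and 58390 bp had late name numbers (described below), at 73.5% to 89.3% of their chromosome. In those ranges 54.6% or 61% of all WT peaks had no partner. The peaks at 54 bp and 1022 bp were at 61.9% and 17.5%, where 46% and 1.56% had none. For the peak at the gene start the nearest KO peak was 32813 bp away. That site, 32857 bp upstream in WT and 32867 bp and 32942 bp upstream in KO, was the only one that both lists held in the window. The intronic peak is shown since it has the lowest relative name number of all WT-only peaks in the 6 windows, a point taken up below.
Tfap2c intron, WT-only peak, chr2:172376065-172376165, plus strand: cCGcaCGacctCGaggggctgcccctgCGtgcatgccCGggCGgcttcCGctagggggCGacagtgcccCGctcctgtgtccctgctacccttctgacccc

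Ets2 (ENSMUSG00000022895.8, chr16:95923682-95942658, plus strand) had 6 WT peaks (2.2 to 13.1) and 1 KO peak (0.0253 to 5.57). Its ratio of 0.167 was the lowest of the 6, and 0.968% of windows had a ratio at or below it. Of 4 WT peaks within 2 kb of a TSS, the one 263 bp downstream of the gene start was shared, with the KO peak at 340 bp. The peak 165 bp upstream, chr16:95923467-95923567, with 15 CpGs in its central 200 bp, and that 599 bp downstream in an intron, with 26, were WT-only. The KO peak lay 505 bp from the former and 259 bp from the latter, so neither was far from a site that both lists held. The WT-only peak at 4134 bp, 130 bp from an inner coding TSS, lay in a repeated sequence whose central 31 bp occurred 945 times in mm9, and its placement is uncertain. The other WT-only peaks lay 43076 bp upstream and 65423 bp downstream, in intergenic sequence. These and the peak at 4134 bp had name numbers (described below) at 99.6% to 99.7% of their chromosome, in the last 10%. Of all WT peaks in the last 10%, 65.7% had no partner. The ratio of 0.167 counts these late-numbered peaks. The upstream peak is shown as the WT-only peak nearest to the Ets2 gene start, with 8 CpGs in the 101 bp printed.
Ets2 upstream, WT-only peak, chr16:95923467-95923567, plus strand: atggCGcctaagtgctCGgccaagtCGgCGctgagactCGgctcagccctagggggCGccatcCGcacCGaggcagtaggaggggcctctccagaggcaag

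Gata3 (ENSMUSG00000015619.9, chr2:9778705-9811661, minus strand) had the most peaks of the 6 genes, 12 in WT (6.2 to 21) and 7 in KO (2.81 to 14.4), a ratio of 0.583 (at or above that of 23.1% of windows). Both lists held peaks at each of its coding starts. At the inner coding TSS, 9800227, WT had a peak 70 bp upstream and KO one 79 bp upstream. A second site, 1119 bp upstream of it in WT and 1108 bp and 1050 bp upstream in KO, had name numbers in the first 2% of their chromosome in both lists, 1.51% in WT and 1.67% and 1.97% in KO. At the gene start a shared peak lay 393 bp downstream in WT and 372 bp in KO. Near the TSSs WT had 7 peaks and KO 4, and the WT peaks 574 bp, 2243 bp, 12452 bp and 15213 bp from the gene start were WT-only. The first of these missed the KO peak closely, at 202 bp between the middles. The other WT-only peaks lay 8091 bp and 8667 bp inside the gene, near the TSS of 4930412O13Rik, and 13985 bp upstream. The KO-only peak lay 49575 bp upstream in an intron of Taf3, a neighbouring gene for a subunit of the TFIID complex, whose intron also held a shared peak. The sequence 1119 bp upstream of the inner TSS is shown as the site with the lowest relative name numbers of the 6 windows in both lists.
Gata3 intron, WT peak, shared, chr2:9801296-9801396, minus strand: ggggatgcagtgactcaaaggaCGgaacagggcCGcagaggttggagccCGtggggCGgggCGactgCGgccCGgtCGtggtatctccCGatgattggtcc

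Cdx2 (ENSMUSG00000029646.3, chr5:148112381-148118846, minus strand) had 9 WT peaks (4.12 to 17.1) and 5 KO peaks (1.62 to 11.7), a ratio of 0.556 (at or above that of 20% of windows). Its only peak within 2 kb of the TSS was WT-only, in a coding exon 602 bp downstream. Over its central 200 bp the GC content was 71%, with 25 CpGs. Of the 3821 genes with exactly 1 WT peak near a TSS, 23.4% had no KO peak there, and both such genes of the set, Cdx2 and Hand1, had none (2 of 2). The nearest KO peak was farther into the gene, at a shared intronic peak 2228 bp downstream in WT and 2205 bp in KO. Downstream of the gene shared and WT-only peaks alternated. Shared peaks lay 7877 bp and 13947 bp from the TSS, each with WT-only peaks around it at 7411 bp, 12984 bp and 14954 bp. Another WT-only peak, 8017 bp upstream, fell in a coding exon of Prhoxnb. The remaining shared peak, 37234 bp away, was at the start of Pdx1, the pancreatic homeobox gene, 77 bp from its TSS. The exonic and the intronic peak are shown side by side, as the one that KO lacked and the nearest one that it held.
Cdx2 exon, WT-only peak, chr5:148118194-148118294, minus strand: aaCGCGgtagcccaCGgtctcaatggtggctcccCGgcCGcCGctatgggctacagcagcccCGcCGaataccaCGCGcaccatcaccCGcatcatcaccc
Cdx2 intron, WT peak, shared, chr5:148116568-148116668, minus strand: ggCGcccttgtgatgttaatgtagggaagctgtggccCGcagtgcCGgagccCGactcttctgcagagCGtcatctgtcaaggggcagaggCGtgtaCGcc

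Hand1 (ENSMUSG00000037335.7, chr11:57642207-57646320, minus strand) had 8 WT peaks (3.45 to 15.8) and 5 KO peaks (1.62 to 11.7), a ratio of 0.625 (at or above that of 29% of windows). One of these peaks was near Hand1 itself, a WT-only peak 667 bp downstream of the gene start, chr11:57645603-57645703, 4 bp from the inner coding TSS. The KO peak closest to it was 30566 bp away. The others lay at neighbouring genes or in intergenic sequence. The start of Sap30l, which encodes a protein related to a histone deacetylase complex subunit, had a shared peak 31232 bp from the Hand1 start in WT and 31233 bp in KO, and WT-only peaks at 30745 bp and 30801 bp. WT-only peaks also lay at 34803 bp, at 45508 bp and 36111 bp upstream. Hand1 had 3 of the 5 KO-only peaks of the set, at 41836 bp downstream and 36394 bp and 36446 bp upstream. All 3 had a WT peak between 205 bp and 335 bp away, beyond the 100 bp allowed. For the KO-only peak at 41836 bp, that WT peak, at 41631 bp, had another KO peak as its partner. Both upstream KO-only peaks lay beside the same WT-only peak, 36111 bp upstream.

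Peak names carry a number for each chromosome, whose meaning is not given in the sources used here. In the order of these numbers positions rose along the chromosome in runs, 98 to 123 runs in WT on the 4 chromosomes of the set, and the last 10 runs were longer than the first 10 on each, by their medians. The share of peaks without a partner rose with the number over the whole WT list, from 0.334% in the first 10% of the numbers to 65.7% in the last 10%. In the 6 windows 60.9% of the WT peaks were in the later 50% of the numbers, where 22 of 28 (78.6%) were WT-only beside 53.3% of the list. In the first 50%, 8 of 18 (44.4%, 21.5% to 69.2%) were WT-only beside 10.8%. These 8 were the Tfap2c peak at 1022 bp, the Gata3 peaks at 574 bp, 8091 bp, 8667 bp and 12452 bp, the Ets2 peaks 165 bp upstream and 599 bp downstream, and the Hand1 window's peak at 45508 bp. The Tfap2c peak was in the second 10% of the numbers, in which 1.56% of WT peaks had no partner. In KO, 1 of 11 peaks in the first 50% was KO-only (9.09%), beside 8.69% of the list.

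**Figure D5:**
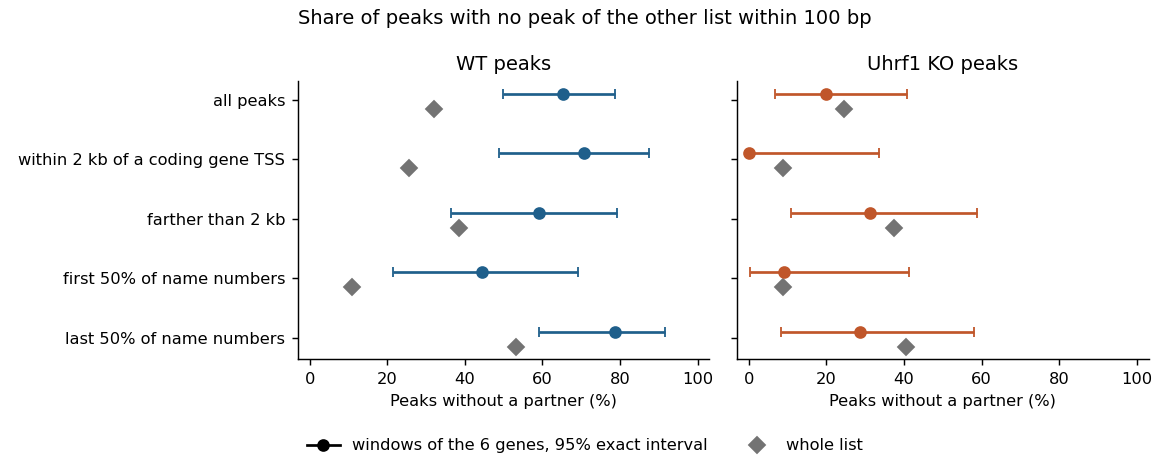
Share of peaks without a partner within 100 bp in the other list (x axis, %), for WT peaks on the left and Uhrf1 KO peaks on the right, in all peaks and by distance to a protein-coding TSS and name number (y axis). Points are the windows of the 6 genes with 95% exact intervals and grey diamonds the whole list. WT points lie above the diamonds in every row, with 65.2% against 32.1% over all peaks, and KO intervals include the diamonds.

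The WT-only peaks of the set were GC-rich. Over the central 200 bp their median GC content was 62.2% with 9.5 CpGs, beside 58% and 7 CpGs for all WT-only peaks of the list. The shared WT peaks had 59.5% and 7.5 CpGs, beside 60.5% and 10 CpGs in the list. The 5 KO-only peaks had 52.5% and 2 CpGs, beside 49.5% and 2 CpGs in the list. Among WT peaks with a GC content of at least 60%, 17 of 24 (70.8%) were WT-only, beside 27.8% of the list, and among the rest 13 of 22 (59.1%), beside 36.2%. KO had 10 peaks with at least 60% GC, and 0 of 10 were KO-only, beside 5.58% of the list. Uncertain placement was rare, as the central 31 bp occurred once in mm9 for 44 of 46 WT and 24 of 25 KO peaks.

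Short motifs were searched in the central 200 bp on both strands and set beside the share of all peaks of the same length. GCCNNNGGC, the AP-2 core, was in 11 of 46 WT peaks (23.9%, 12.6% to 38.8%; list 16.2%), among them 4 at Cdx2 and 2 at Tfap2c itself. The GATA core AGATAA was in 3 (6.52%; list 3.87%), the TEAD core GGAATG in 5 (10.9%; list 9.54%) and the Ets core CCGGAAG in 3 (6.52%; list 6.35%), all of them at Gata3. The caudal core TTTATNG was in 2 (4.35%; list 3.55%) and the octamer ATGCAAAT in 1 (2.17%; list 1.58%). CANNTG, the bHLH core, was in 19 (41.3%, 27% to 56.8%; list 56.6%) and in 17 of 25 KO peaks (68%, 46.5% to 85.1%; list 57.7%). AGGGGGC, the core bound by the insulator protein CTCF, was searched for after it had been noticed in the sequences above, as in the Tfap2c intronic peak and the Ets2 upstream peak. It was in 9 of 46 WT peaks (19.6%, 9.36% to 33.9%; list 11.6%) and 3 of 25 KO peaks (12%; list 10%). It was in 6 of the 30 WT-only peaks (20%) and 3 of the 16 shared ones (18.8%). For each of these motifs the interval of the set included the list's share in both libraries. Split by partner, the bHLH core was in 10 of the 30 WT-only peaks (33.3%, 17.3% to 52.8%), below the 60.9% of all WT-only peaks, and in 9 of the 16 shared WT peaks (56.2%, 29.9% to 80.2%; list 54.6%). All the motifs were split in this way in both lists. Only the bHLH interval in WT-only peaks missed the list's share, with no correction for the number of splits or for peaks that lie together. Whether the set differs from the list was not tested.

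Other trophoblast genes gave a background for the set. Of 22 such genes, 11 had peaks of both lists within 2 kb of a TSS, 5 of WT alone, 1 of KO alone and 5 of neither. Of all 22367 protein-coding genes, 12745 had peaks of both lists, and the shares for the last 3 classes were 6.64%, 1.73% and 34.6%. Those with WT peaks alone were Dlx3 and Cited1, which act in the placenta, Fosl1, an AP-1 subunit, and the keratin genes Krt8 and Krt18 of the trophectoderm epithelium. Gcm1, the factor of the labyrinth, had a peak in KO alone. Plet1, Krt7 and the placental Tpbpa, Prl3d1 and Prl2c2, like Elf5, had none. Eomes, Tead4, Gata2, Sox21 and Ascl2 were among those with peaks in both. The windows of these 22 genes held 280 WT and 175 KO peaks, with each peak counted once where windows overlap, and 16 of 22 held fewer in KO, beside 56.7% of all windows, and 4 more. The gene model of Fgfr2 alone accounts for 114 WT and 71 KO peaks.

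Markers of the cells were compared in the same way, beside the 12745 of 22367 protein-coding genes with TSS peaks in both lists. All 8 ESC markers (Pou5f1, Sox2, Nanog, Zfp42, Esrrb, Klf4, Tdgf1 and Utf1) had TSS peaks in both lists, with 109 WT and 86 KO peaks in their windows. Of these 8 windows, 7 held fewer peaks in KO, beside 56.7% of all windows, and 1 more. In direction alone, fewer KO peaks per window were thus not particular to the trophoblast genes. The size differed, as the 109 WT and 86 KO peaks stand beside 46 and 25 in the 6 windows. The 22 other trophoblast genes had 280 and 175. Of 6 fibroblast markers, which feeder cells would bring, 4 (Col1a1, Col1a2, Thy1 and Prrx1) had TSS peaks in both lists and 2 (Col3a1 and Postn) in neither, with 31 WT and 34 KO peaks. Their windows held fewer peaks in KO at 1 gene and more at 3. The 4 primitive endoderm markers Gata4, Gata6, Sox17 and Foxa2 had peaks in both lists, with 39 and 36 peaks in their windows, fewer in KO at 2 and more at 2. The part of feeder cells, cell state or depth in the lower KO numbers at the trophoblast genes was not tested.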

How the data were processed

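ATAC-seq of 1 WT and 1 Uhrf1 KO ESC library was analysed. Per the labels, the reads were mapped to mm9, and the submitters' processing notes name Bowtie2 2.1.0 and HOMER 4.9.1, the latter with no role. The peak caller, its threshold and any shift of read ends to the Tn5 cut are not given in the sources used here. The authors deposited lists of peak positions in mm9, 101 bp wide except for 1 KO peak, with a deposited score of 1 for every peak, so that neither width nor score tells peaks apart.

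From these positions, peaks were assigned to genes of GENCODE vM1, on the same build, by the middle of the peak, and distances run along the strand of the gene to any of its annotated transcript starts. Tfap2c, Tfap2a and Plet1 were found under older symbols through RefSeq synonyms. Partners were peaks of the other list with a gap of at most 100 bp, the study's distance for transcription factor peaks. GC content and motifs were taken over the central 200 bp, and copies of the central 31 bp were counted on both strands of mm9. Python 3.11.15, numpy 2.4.6, pandas 2.3.3, scipy 1.17.1, numba 0.67.0 and matplotlib 3.10.9 were used. Counts have exact Poisson and shares exact Clopper-Pearson intervals at 95%, for counting error only. The partner routine was tested on 20000 simulated regions with 0 wrong calls. These regions lay well apart with at most 1 counterpart each, so overlapping peaks and sites with 2 peaks of 1 list were not covered.

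The 6 members and all gene lists were chosen with earlier results of these data known. All 6 members were named, with every peak within 2 kb of a TSS, the nearest peak of each list, and peaks without a partner, all of them where a member had at most 6 and otherwise the nearest 3. Other peaks named, and the CpG-rich classes, were chosen after their values were seen.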

Additional observations from a re-analysis of the deposited data

How the results depend on the processing

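No paired analysis was possible because there is a single library of each genotype. Of 83 alternative values of the set's results, 75 differed from the main value by less than its counting interval or 1.5 times, 8 moved and 0 reversed. The KO to WT ratio of peak number ranged from 0.375 with a flank of 20 kb to 0.714 when the WT list was cut by name number to the length of the KO list, and from 0.476 without Elf5 to 0.6 without Ets2. For the 0.714 both whole lists were of equal length, so the 0.857 of the full lists is not its background. When each list was limited to its first 50% of name numbers, the windows held 18 WT and 11 KO peaks. A TSS peak was then listed in WT at 3 members and in KO at 1. No share of all protein-coding genes was taken in the shortened lists, so these counts have no background. Of the 18 WT peaks, 44.4% had no partner in the whole KO list. With a flank of 20 kb, 12 KO peaks were left and 0% were KO-only. When both peaks had to share at least 50% of their length, 56% of KO peaks were KO-only. With a gap of up to 500 bp, 50% of the WT peaks were WT-only and 8% of the KO peaks KO-only. The 500 bp gap, the settings without one member and that without peaks at the TSSs of other genes were added after seeing the data. Without read counts, no peak has an error of its own, and depth, a peak caller's threshold and genotype cannot be told apart for a peak that is missing from a list.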

Other observations

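The name numbers of the same site often differed between the lists. At the start of Sap30l, next to Hand1, the shared peak lay at 2.99% of the numbers of its chromosome in WT and at 12.1% in KO. The shared Pdx1 peak of the Cdx2 window lay at 29.2% in WT and at 62.4% in KO, and the shared Cdx2 intronic peak at 42% and 68.5%. Of the 16 shared WT peaks, 11 (68.8%) had a later number in KO, beside 55.1% of all shared WT peaks, and 5 an earlier one. These 5 were the intronic peak of Elf5 (94.8% in WT, 74.1% in KO), the Hand1 window's peak at 41631 bp (73.5% and 34.7%), the Cdx2 peak at 7877 bp (67.7% and 56.1%), the Taf3 intronic peak of the Gata3 window (26.6% and 17.8%) and the Tfap2c peak 32857 bp upstream (89.3% and 87.8%).

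In the last 5 runs of name numbers, 19 of 23 WT peaks of the set (82.6%, 61.2% to 95%) were WT-only, beside 58% of the WT list, and 3 of 10 KO peaks (30%, 6.67% to 65.2%) were KO-only, beside 43.4% of the KO list.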
